A study of Homo sapiens with 2 samples.

Results

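In CAMA-1 cells, 622 of 19111 autosomal protein-coding genes (3.25%) had open chromatin over at least 3 separate annotated starts. A gene was chosen by the peaks themselves: it needed at least 3 regions of accessible chromatin found in both replicates, each over a different annotated transcription start site (TSS) of that gene and each at least 5 kb from the others. Only 6578 genes have annotated TSSs spread widely enough to meet this rule, and the 622 genes made up 9.46% of them (95% Wilson interval, 8.77% to 10.2%). This number rests on which annotated TSSs are admitted: it fell to 223 genes with the TSSs of protein-coding transcripts alone, to 103 with the GENCODE basic set and to 34 with the best supported transcripts (transcript support level 1).

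CAMA-1 is a luminal, estrogen receptor-positive breast cancer cell line labelled as epithelial. Its chromatin was profiled by ATAC-seq, an assay of accessibility that relies on Tn5 transposase to cut and tag open DNA. The data analysed here are 2 biological replicates of the line, grown in serum-containing medium with no treatment recorded, and no other condition. The peak lists held 245736 peaks in replicate 1 and 259745 in replicate 2, which merged into 209570 autosomal regions with a peak from both, and they carry no read totals of their own.

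A promoter is the stretch of DNA around a TSS where transcription begins. Many mammalian genes carry alternative promoters, which give transcripts with different first exons, can change the start of the protein, and let a gene respond to different factors in different tissues. Most promoters of broadly used genes lie in CpG islands, where the dinucleotide CpG is kept at a high density, whereas many tissue-restricted promoters and most enhancers are poor in CpG. An accessible TSS can be a promoter in use, a promoter held ready, or a regulatory element that overlaps an annotated start, and ATAC-seq alone does not separate these. RNA from the same cells was not analysed here.

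The upstream sequences of 3 members show the 2 kinds of start that were open within a single gene, and were picked for this after their values had been seen. Each is the 150 bp before the TSS on the gene's own strand, from the hg38 genome, 5′ to 3′, free of annotated exons, with every CpG in capitals. DST, which encodes the cytoskeletal linker dystonin, lies on the minus strand of chromosome 6, and its promoters 1, 3, 4 and 6, numbered from the 5′ end, come from chr6:56954831-56954980, chr6:56843666-56843815, chr6:56693304-56693453 and chr6:56542809-56542958.
DST promoter 1: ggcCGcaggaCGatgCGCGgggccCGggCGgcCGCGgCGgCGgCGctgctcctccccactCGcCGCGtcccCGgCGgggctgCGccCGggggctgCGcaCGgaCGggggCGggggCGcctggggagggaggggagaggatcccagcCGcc
DST promoter 3: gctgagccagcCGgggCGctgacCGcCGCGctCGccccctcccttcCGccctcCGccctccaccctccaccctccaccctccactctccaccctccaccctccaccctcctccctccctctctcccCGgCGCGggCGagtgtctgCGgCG
DST promoter 4: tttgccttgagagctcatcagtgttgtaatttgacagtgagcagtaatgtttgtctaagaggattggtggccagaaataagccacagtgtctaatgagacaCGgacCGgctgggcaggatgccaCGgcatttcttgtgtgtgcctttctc
DST promoter 6: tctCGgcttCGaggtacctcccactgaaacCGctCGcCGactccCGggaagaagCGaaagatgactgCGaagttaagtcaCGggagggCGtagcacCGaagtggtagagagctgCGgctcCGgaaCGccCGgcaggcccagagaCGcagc
These stretches held 24, 14, 3 and 16 CpGs. Promoter 6, deep inside the gene, was the strongest of the 6 open promoters of DST. Promoters 1 and 3 each held 2 GC boxes (GGGCGG on either strand), the motif bound by SP/KLF factors, and promoter 4 held a CCAAT motif.

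IGF1R, which encodes the receptor for insulin-like growth factor 1, lies on the plus strand of chromosome 15, and its promoters 1, 2 and 3 come from chr15:98648389-98648538, chr15:98734562-98734711 and chr15:98873569-98873718. TP73, which encodes a p53 family transcription factor, lies on the plus strand of chromosome 1, and its promoters 1 and 3 come from chr1:3652366-3652515 and chr1:3727328-3727477.
IGF1R promoter 1: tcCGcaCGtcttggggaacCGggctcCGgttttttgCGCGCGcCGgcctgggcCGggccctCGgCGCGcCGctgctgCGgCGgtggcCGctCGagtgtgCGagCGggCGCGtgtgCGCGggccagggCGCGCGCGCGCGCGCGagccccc
IGF1R promoter 2: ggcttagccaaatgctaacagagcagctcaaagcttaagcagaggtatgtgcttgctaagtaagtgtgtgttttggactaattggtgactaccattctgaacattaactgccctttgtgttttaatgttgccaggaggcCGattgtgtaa
IGF1R promoter 3: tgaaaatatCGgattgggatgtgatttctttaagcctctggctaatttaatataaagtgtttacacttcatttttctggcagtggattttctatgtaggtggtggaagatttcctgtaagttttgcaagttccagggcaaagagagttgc
TP73 promoter 1: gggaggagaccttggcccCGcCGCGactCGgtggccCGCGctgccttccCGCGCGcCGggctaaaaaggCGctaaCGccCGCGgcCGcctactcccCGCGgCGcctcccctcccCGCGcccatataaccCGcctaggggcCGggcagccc
TP73 promoter 3: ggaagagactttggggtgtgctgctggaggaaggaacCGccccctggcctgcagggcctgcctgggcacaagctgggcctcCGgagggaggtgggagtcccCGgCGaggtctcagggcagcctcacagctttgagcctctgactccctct
The first promoter of IGF1R held 31 CpGs and promoters 2 and 3 held 1 each. In TP73 the counts were 22 and 4. In both genes the CpG-dense first promoter was not the strongest.

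Regions of a gene under 5 kb apart were joined into a single open promoter, so the 622 genes had 2412 TSS regions and 2016 open promoters. Most genes, 445, had 3 open promoters, 104 had 4, 18 had 5, 14 had 6 and 2 had 7. In 39 genes the joining left fewer than 3, since a chain of nearby regions can span more than 5 kb. At least 3 joined open promoters remained in 583 genes, 8.86% of the eligible ones. The rule had limits that cut through a continuous range. The members nearest to the limit were LMNA, CSK and SDHA, where 3 regions were still 5005, 5031 and 5055 bp apart, and just outside were NGEF, RARG and ACE, at 4999, 4981 and 4945 bp.

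**Figure D1:**
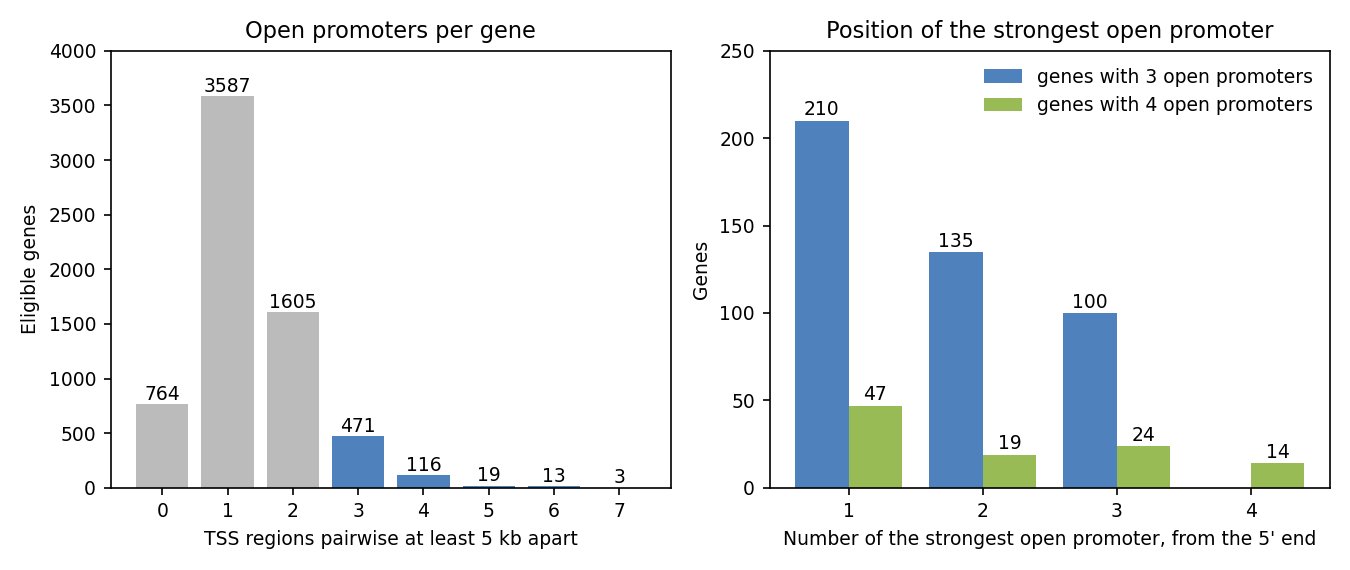
Left, eligible genes by the number of TSS regions pairwise at least 5 kb apart, with the chosen genes in blue; right, number of the strongest open promoter counted from the 5′ end in genes with 3 or 4 open promoters. Most eligible genes, 3587, had 1 such region, and the strongest promoter was number 1 in 210 of the 445 genes with 3 open promoters and in 47 of the 104 with 4.

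The members were larger and more densely annotated than the other eligible genes. Their median gene length was 93.0 kb, against 74.7 kb for the 5956 eligible genes that were not chosen, and their median number of annotated TSSs was 16.0 against 10.0. The median distance from the first to the last open promoter was 62.2 kb. Within the members 53.8% of 11698 annotated TSSs lay in a shared region, against 43.4% of 71710 TSSs in the other eligible genes. The rule chose the members by TSSs in shared regions, so this difference is partly set in advance. The number of annotated TSSs moved with membership, and its part in the choice was not tested.

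Peak strength was the fold enrichment over background that the peak caller gave, and the value of an open promoter in each replicate was that of its strongest peak. All strengths come from the same peaks that chose the genes, so they are descriptions without a test. The median open promoter stood at 32.4-fold in replicate 1 and 33.4-fold in replicate 2, and mean values over the replicates ran from 3.26 to 269. All shared autosomal regions had a median of 9.85. The replicates differed by a median of 8.89% of their mean at an open promoter.

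The strongest open promoter of a gene was the 5′-most in 291 of 622 genes, or 46.8% (42.9% to 50.7%). Of all open promoters of these genes 30.9% are the strongest of their gene. The strongest lay between the ends in 31.4% of genes and at the 3′ end in 21.9%. Middle promoters were more numerous, 773 or 38.3% of all open promoters, and 25.2% of them were the strongest, against 46.8% of first and 21.9% of last promoters. By replicate, the 5′-most promoter was the strongest in 46.3% of genes in replicate 1 and 47.3% in replicate 2. In genes with 3 open promoters the count fell from 210 for the first to 135 for the next and 100 for the last. With 4 it was 47, 19, 24 and 14.

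Median strength also fell along the gene. The first open promoter had a median of 48.9-fold in replicate 1 and 52.2-fold in replicate 2, promoters in the middle had 27.6 and 29.0, and the last had 23.2 in both. The canonical TSS, that of the transcript the annotation takes to represent the gene, was open in 575 members and was the strongest in 280 of these, or 48.7%. In the remaining members the strongest region lay over another annotated start.

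**Figure D2:**
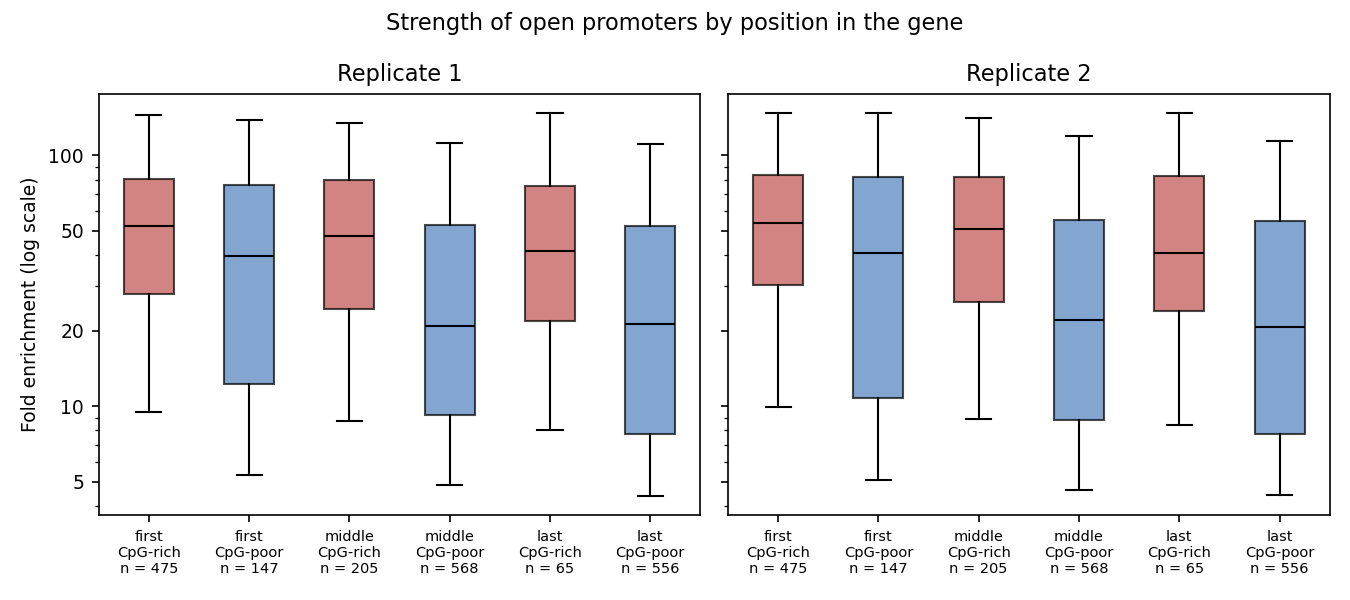
Fold enrichment (log scale) of the open promoters by position in the gene and CpG class, in each replicate. Boxes show the median and quartiles and whiskers the 5th and 95th percentiles over promoters; in both replicates CpG-poor middle and last promoters have the lowest medians, and CpG-rich ones stay nearer to the first promoters.

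The lead of the strongest promoter was modest in most genes. It was a median of 1.84 times as strong as the next (quartiles 1.32 and 2.93) and 6.03 times as strong as the weakest. At least 2 times the next was reached in 273 of 621 genes with 2 or more open promoters, at least 5 times in 75 and at least 10 times in 29. In 563 of 621 genes (90.7%) both replicates of the strongest promoter lay above both replicates of every other. The same region was strongest in both replicates in 92.8% of members. In the 45 others the median lead was 1.05-fold, against 1.94-fold where the replicates had the same region on top.

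**Figure D3:**
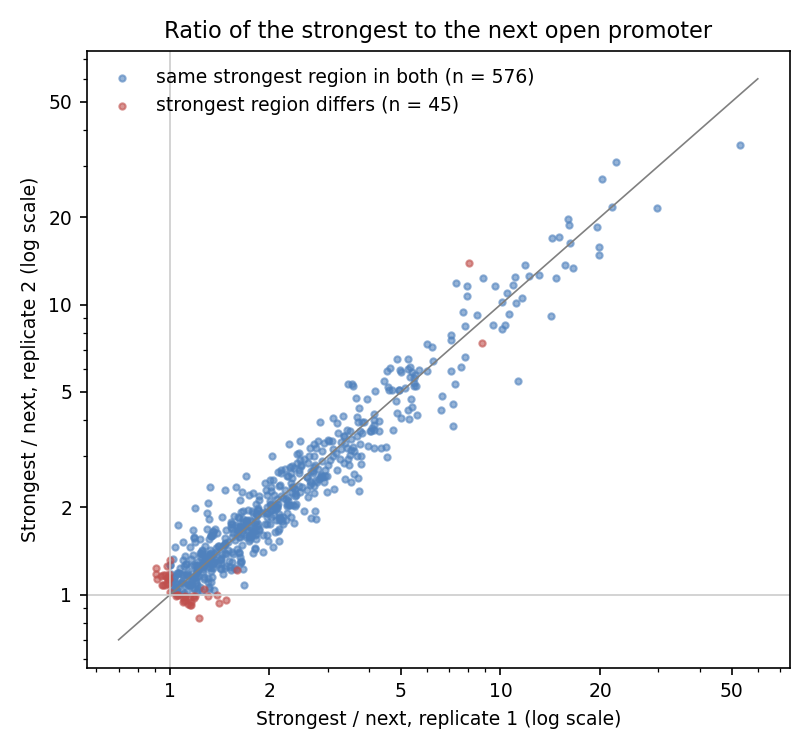
Fold enrichment of the strongest open promoter divided by that of the next, in replicate 1 against replicate 2 (log scales), for 621 genes; the line marks equal ratios. Genes whose strongest region differed between replicates (red, 45) mostly sit near a ratio of 1, apart from a few in which the differing regions belong to the same open promoter.

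The 5′-most promoters were mostly CpG-rich and the later ones mostly not. A promoter was CpG-rich when the 300 bp around the TSS, from 250 bp upstream to 50 bp downstream, had at least 50% GC and an observed over expected CpG ratio of at least 0.6. By this measure 76.4% of first promoters were CpG-rich (72.9% to 79.5%), 26.5% of middle ones and 10.5% of last ones. Of open promoters at the canonical TSS 88.4% were CpG-rich, against 18.1% of the others. Annotated TSSs of the same genes that lay outside shared regions were CpG-rich in 9.13% of cases, and all annotated TSSs of autosomal protein-coding genes in 45.4%.

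Strength and CpG content went together in part. Of the strongest promoters 55.1% were CpG-rich (51.2% to 59.0%), against 28.8% (26.5% to 31.3%) of the other open promoters. The intervals cover counting error only, and genes are not replicates. Among the 34 genes chosen from support level 1 transcripts the shares were 41.2% (26.4% to 57.8%) and 40.8% (30.4% to 52.0%). With TSSs of protein-coding transcripts they were 54.7% and 37.2%, and with the GENCODE basic set 53.4% and 40.7%. Why the gap differed between these sets was not tested. CpG-rich promoters past the first had a median of 45.8-fold in replicate 1 and 48.1-fold in replicate 2, against 20.9 and 21.7 for CpG-poor ones.

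CpG-poor promoters also held the top place in many members, though a smaller share of them reached it. They made up 63.0% of all open promoters, and 22.0% of them were the strongest, against 46.0% of CpG-rich ones. In 393 members (63.2%) exactly 1 open promoter was CpG-rich, and it was the strongest in 215 of them, or 54.7%. Another 66 members had no CpG-rich open promoter. In 224 members the strongest was a later, CpG-poor promoter, with a median of 78.0-fold in replicate 1 and 80.2-fold in replicate 2. There were 1124 later CpG-poor promoters (55.8% of all open promoters), and 19.9% of them were the strongest. First promoters that were the strongest of their gene had medians of 73.9 and 77.4.

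Several motifs within the same 300 bp differed in frequency between the CpG classes, while the CCAAT box (CCAAT) did not stand apart, with 29.5% of first and 29.6% of later CpG-rich promoters and 32.7% of first and 29.4% of later CpG-poor ones. Matches were sought on both strands as exact letters, and GC boxes and motifs with CpG depend on base composition. The GC box GGGCGG was present in 84.2% of first CpG-rich promoters and 81.5% of later CpG-rich ones, against 26.5% and 16.9% of CpG-poor ones and 43.3% of all annotated TSS windows. The ETS motif CCGGAAG had shares of 14.5% and 12.6% in the CpG-rich classes and 3.40% and 2.58% in the CpG-poor ones, with 10.6% of all windows.

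Other letters were more frequent where CpG was scarce. The AP-1 motif TGANTCA, bound by FOS and JUN dimers, was in 13.1% of later CpG-poor promoters (147 of 1124), 2.74% of first CpG-rich promoters, 8.09% of the members' TSSs outside shared regions and 6.33% of all windows. The FOX motif TGTTTAC, bound by forkhead factors such as the luminal pioneer FOXA1, had 4.89%, 1.26%, 3.20% and 3.02% in the same sets. In first CpG-poor promoters its share was 2.72% (4 of 147), not above that of all windows. The part of base composition in these shares was not tested. The GATA motif AGATAA had 10.6% in later CpG-poor promoters, which was not above the 12.1% of the members' TSSs outside shared regions. TATAAA was in 10.8% of later CpG-poor promoters and in 13.4% of the members' TSSs outside shared regions. A match is a description of the letters and not evidence of binding.

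**Figure D4:**
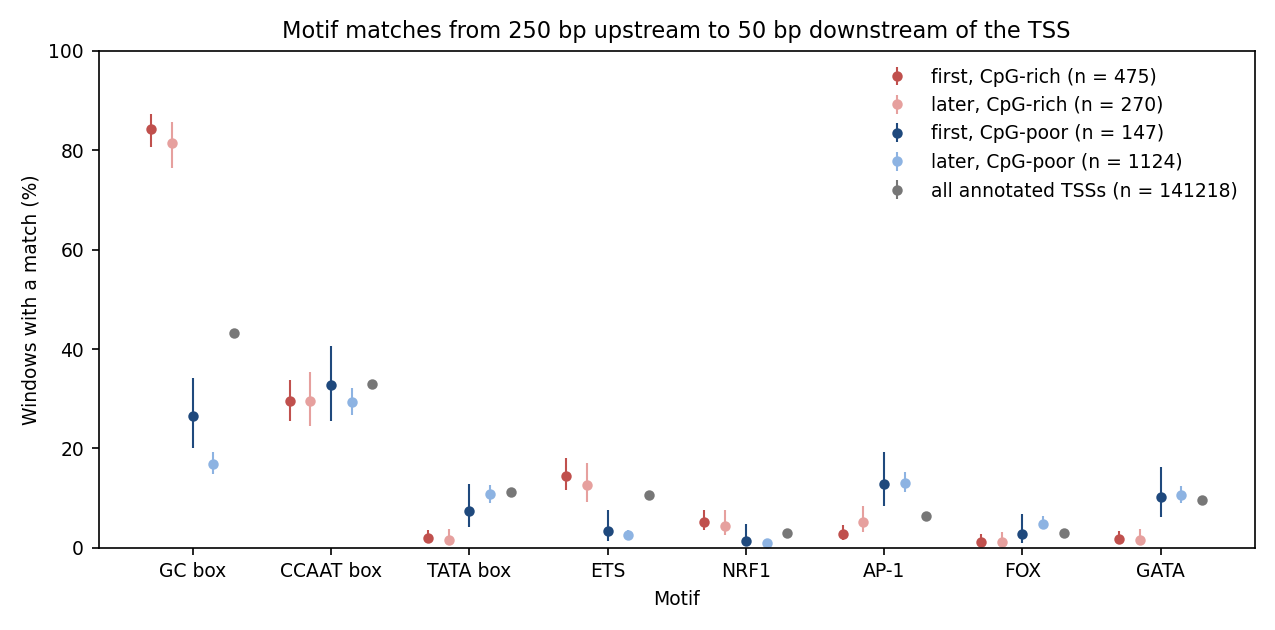
Share of TSS windows with at least 1 match to each motif, by position and CpG class of the open promoter, with all annotated TSS windows in grey; bars are 95% Wilson intervals for counting error. GC box shares are 84.2% and 81.5% in the CpG-rich classes, and AP-1 shares are 12.9% and 13.1% in the CpG-poor classes.

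Where the promoters lay against the gene differed as well. Of the 2016 open promoters 541 were at the canonical TSS, 947 (47.0%) in an intron of the canonical transcript, 220 over an exon, 298 upstream of the canonical start and 10 downstream of the transcript. Exonic ones were the weakest class, with a median of 13.9-fold over the replicates, against 24.9 for intronic, 38.4 for upstream and 55.7 for canonical ones. The annotation assigned 1252 open promoters (62.1%) to a coding transcript with a start codon, 98 to coding transcripts without one, and 666 (33.0%) to non-coding transcripts of the gene alone. The last class had a median of 19.3-fold in replicate 1 and 19.9-fold in replicate 2, against 42.3 and 43.9 for starts of transcripts with a start codon.

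In 405 members at least 2 open promoters led to annotated start codons, and in 253 of these (62.5%) the start codons differed between promoters. Start codons thus differed in 40.7% of all members, and in 67.3% and 79.6% of the genes chosen from the TSSs of protein-coding transcripts and of the GENCODE basic set. Some regions serve a neighbour too. A TSS of another protein-coding gene lay in 14.3% of the strongest open promoters (89 of 622) and in 6.96% of the others, and such shared promoters had medians of 63.6-fold and 65.8-fold. Among strongest promoters that were not the 5′-most the share was 4.23% (14 of 331). Leaving out every region over a TSS of any other gene left 399 genes that met the rule.

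The genes with the most open promoters included BCAR3, DST, SEPTIN9, ITGB5, DAB2IP, PRKCH and RERE. BCAR3, an adaptor protein linked to anti-estrogen resistance, had 7 over 279 kb. Its strongest was number 6, an intronic CpG-poor region (chr1:93583770-93586015), at 157-fold in replicate 1 and 149-fold in replicate 2. The CpG-rich canonical promoter, number 3, stood at 134 and 150, so the top place changed between the replicates. The other five ranged from a mean of 13.3 to 105.

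DST had 6 open promoters over 412 kb, all of them starts of coding transcripts. Promoter 6 (chr6:56542285-56543333) stood at 161-fold in replicate 1 and 154-fold in replicate 2, and promoter 1, which also covers a TSS of BEND6, at 101 and 107. Promoter 3 had 68.1 and 63.0 and CpG-poor promoter 4 had 61.7 and 62.8. The remaining pair was weaker, at 30.8 and 23.7 for promoter 2 and 14.7 and 14.8 for promoter 5. Plakins such as dystonin are known for tissue-specific isoforms from separate starts.

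SEPTIN9, a filament-forming GTPase, was strongest at its first open promoter, at 174-fold and 170-fold, and its sixth, 165 kb further on, had 97.3 and 103. ITGB5, an integrin subunit, was strongest at its CpG-rich canonical promoter, at 97.1 and 112, and its last 3 promoters, all CpG-poor, ranged from a mean of 68.3 to 77.2. DAB2IP, a Ras GTPase-activating protein, had its canonical promoter at only 13.8 and 12.2, while intronic promoter 5 stood at 106 and 103. PRKCH, a protein kinase C, was strongest at a first promoter shared with TMEM30B, at 148 and 159. RERE, a nuclear corepressor, was strongest at an upstream CpG-poor promoter, at 89.5 and 85.6.

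**Figure D5:**
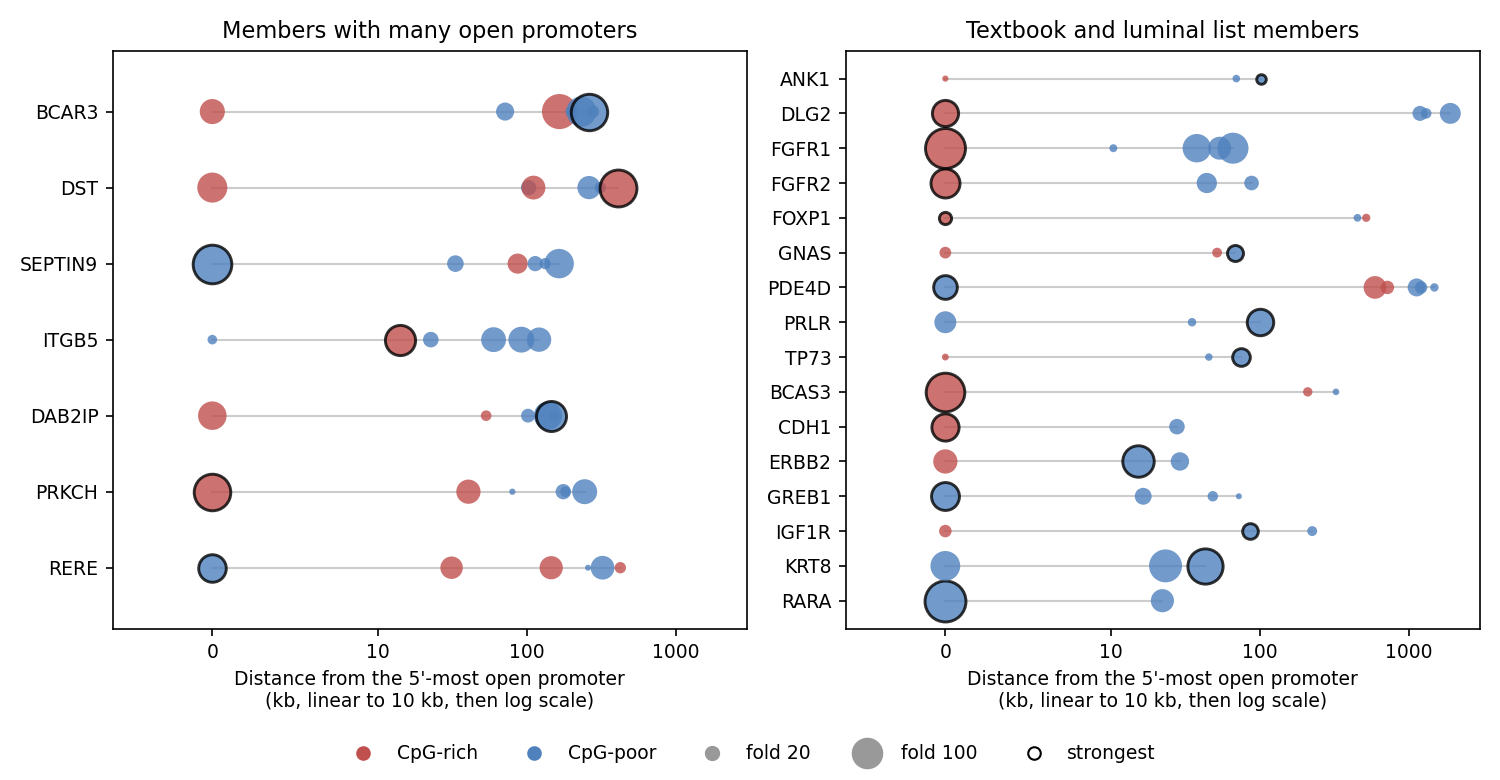
Open promoters of 7 members with the most open promoters (left) and of the textbook and luminal list members (right), by distance from the 5′-most open promoter of the gene (linear to 10 kb, then log scale). Circle area is proportional to the mean fold enrichment over 2 replicates, colour gives the CpG class and a black outline the strongest; in DST, IGF1R, TP73 and PRLR the outline sits far from the first promoter.

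The textbook list held 45 genes known for alternative promoters, of which 36 were eligible and 9 (25.0%, 13.8% to 41.1%) were members, against 9.46% of all eligible genes. The strongest promoter was the first in 5 of the 9. TP73 was open only weakly at its CpG-rich canonical promoter, at 6.44-fold in replicate 1 and 4.42-fold in replicate 2. Its promoter 3, annotated for non-coding transcripts alone, had 35.0 and 37.1 (chr1:3727154-3727807).

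PRLR, the prolactin receptor, had 58.9 and 52.2 at the canonical promoter, 8.28 and 8.40 at promoter 2 and 78.5 and 83.1 at promoter 3, an intronic start of coding transcripts 100 kb downstream. GNAS, which encodes the stimulatory G protein subunit from an imprinted locus, was strongest at promoter 3, at 27.4 and 31.8, while the canonical promoter had 10.8 and 11.5. ANK1, a membrane-cytoskeleton ankyrin, was weak throughout and strongest at promoter 3, at 10.4 and 10.8. PDE4D, a cAMP phosphodiesterase, had 6 open promoters across 1488 kb, all starts of coding transcripts. Its first stood at 61.0 and 68.5 and its canonical second at 59.4 and 59.7, a lead of 1.09-fold.

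The growth factor receptor FGFR1 had 178 and 190 at its canonical promoter and 112 and 109 at promoter 5, which lies past the canonical transcript and also covers a TSS of LETM2. FGFR2 had 94.1 and 100 at the canonical promoter, ahead of 45.1 and 49.3 at promoter 2. DLG2, a synaptic scaffold, had 80.8 and 77.4 at a first promoter shared with TMEM126B and 45.3 and 55.7 at promoter 4, 1903 kb away. FOXP1, a forkhead repressor, had 18.2 and 16.4 at its canonical first promoter and under 10 at the others.

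Of the luminal breast list, 8 of 17 eligible genes (47.1%, 26.2% to 69.0%) were members, against 9.46% of all eligible genes. The strongest promoter was the first in 4 of the 8. This list and the textbook list were fixed with earlier results of these data known. The part of gene length and of annotated TSSs in their shares was not tested. ERBB2, the receptor tyrosine kinase HER2, had 66.5-fold in replicate 1 and 69.2-fold in replicate 2 at a CpG-rich first promoter that also covers a TSS of PGAP3. An intronic promoter 15.3 kb further on (chr17:39702556-39706741), CpG-poor and a start of coding transcripts, had 110 and 118. The canonical TSS of ERBB2 was open too, within this same joined promoter, which is represented by its stronger intronic region. IGF1R had 20.7 and 15.5 at the canonical promoter, 26.9 and 29.6 at promoter 2 and 11.5 and 11.3 at promoter 3, and the later starts are annotated for non-coding transcripts alone.

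RARA, the retinoic acid receptor alpha, was strongest at a CpG-poor intronic promoter, at 190 and 196, and GREB1, an early estrogen-responsive gene, at one with 91.8 and 87.6. The canonical TSS of RARA was open too, within a joined promoter represented by a stronger region, whereas that of GREB1 did not lie in a shared region. KRT8, the luminal keratin 8, had 3 strong open promoters without CpG richness, at 105 and 99.7, 110 and 139, and 140 and 146, the last at the canonical TSS and the first over a TSS of KRT18. CDH1, or E-cadherin, had 89.0 and 81.6 at its canonical promoter and 31.8 and 24.1 in an intron. BCAS3, a cytoskeletal and autophagy protein first named for its amplification in breast cancer, had 173 and 170 at the canonical promoter and a mean of 10.1 at the next.

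Other lists gave shares around or on both sides of the background of 9.46%. Cytoskeletal linkers had 8 members of 21 eligible genes (38.1%, 20.8% to 59.1%), with ANK1, DST, MACF1 and PLEC among them, nuclear receptors and coregulators 4 of 24, and potassium channels 6 of 31. GTPase regulators had 6 of 79, solute carriers 11 of 148, phosphodiesterases 2 of 18, polarity scaffolds 2 of 13, septins 1 of 7 and WNT pathway genes 1 of 11. Zinc finger genes had 3 of 103 (2.91%, 0.995% to 8.22%), and none of 7 eligible ribosomal protein genes or 2 olfactory receptors was a member. The lists differ in gene length and in the number of annotated TSSs, whose part was not tested. By chromosome, the share of eligible genes was highest on 22 (31 of 138, 22.5%, 16.3% to 30.1%), 16 (15.7%) and 17 (15.1%). It was lowest on 18 (6 of 137, 4.38%, 2.02% to 9.23%) and 12 (4.48%). The part of gene length and annotated TSSs in these shares was not tested either.

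The most uneven genes had a single dominant open promoter. After joining, NR4A1, HGS, ADGRG1 and GRIN1 had only 2 open promoters, so their lead is over the only other one. Their dominant promoters joined 4, 3, 4 and 6 TSS regions. NR4A1, an immediate early nuclear receptor, had 3.68 and 4.86 at an upstream promoter and 195 and 173 at the canonical one (chr12:52048915-52063783), 43.0 times as strong. HGS, a subunit of the endosomal sorting machinery, had 97.8 and 96.4 against 4.37 and 3.10 (26.0 times). ADGRG1, an adhesion G protein-coupled receptor, had 137 and 143 against 4.60 and 6.63 (24.9 times). The leads of GRIN1, an NMDA receptor subunit, MFN2, a mitochondrial fusion protein, and CARD14, a signalling scaffold, were 23.4, 21.8 and 18.9.

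In some of these the dominant open promoter was the last. Apart from NR4A1, the largest leads of a 3′-most promoter were in GRIN1, IRF1, TNIP1 and SLC16A3. All of these but TNIP1 had only 2 open promoters after joining. The GRIN1 region, at 149 and 168, also covers TSSs of LRRC26, TMEM210 and a further coding gene. IRF1, an interferon-regulated transcription factor, had 8.74 and 7.52 upstream and 140 and 148 at its CpG-rich canonical TSS. TNIP1, an inhibitor of NF-kB signalling, was likewise strongest at its canonical TSS, at 98.5 and 93.8. SLC16A3, a lactate transporter, was strongest at a CpG-poor intronic start, at 111 and 114.

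At the other end, strengths were nearly equal. PPFIA3, MYO15B, SRRM2, SMARCD3, TMEM62 and CD9 had at most 1.10-fold between their strongest and weakest open promoters. After joining, all of these but TMEM62 had only 2 open promoters, each represented by its strongest region. Weaker regions within a joined promoter therefore do not enter these ratios. In TMEM62, a transmembrane protein, the 3 open promoters stood at 112 and 111, 122 and 118, and 106 and 120, and the strongest changed from promoter 2 to promoter 3 between replicates. SRRM2, a splicing speckle protein, had 54.8 and 61.9 at its CpG-rich canonical promoter and 53.2 and 60.4 at a CpG-poor intronic one. CD9, a tetraspanin, had 41.0 and 42.5 against 37.7 and 38.0.

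The top place also changed between replicates in PKM and GINS4. PKM, the glycolytic pyruvate kinase, had 76.6 and 69.0 at its CpG-rich canonical promoter and 69.7 and 81.6 at a CpG-poor intronic one. GINS4, a subunit of the replicative helicase, had 131 and 156 at its canonical promoter and 132 and 138 at an intronic start 7.10 kb away. In both genes the values of the leading pair overlapped between the replicates.

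The labelled cell type was checked by open TSSs of marker genes. All 8 luminal markers had a shared region over a TSS (EPCAM, KRT8, KRT18, KRT19, CDH1, GATA3, FOXA1 and ESR1). Of the 4 basal markers KRT14 and KRT17 were open and KRT5 and TP63 were not. All 5 mesenchymal markers, VIM and ZEB1 among them, also had an open TSS, so an open TSS by itself did not separate these cell types.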

How the data were processed

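CAMA-1 ATAC-seq peaks of 2 biological replicates were analysed. The authors trimmed reads (Trim Galore 0.6.5), aligned them (Bowtie2 2.3.5.1) and called peaks in each replicate (MACS2 2.2.6), per the submitters' processing notes, which name hg38. MACS2 settings, duplicate handling and excluded regions are not given in the sources used here. The deposited lists give a score, a fold enrichment (a ratio over background), and the −log10 p-value and −log10 q-value of each peak, without read counts. The study lists read totals for both libraries, which were not used here. The lowest −log10 q-value in the lists was 2.24 in replicate 1 and 2.07 in replicate 2.

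Peaks overlapping by at least 1 bp were merged into shared regions and joined to TSSs of GENCODE release 44 (Python 3.11.15, numpy 2.4.6, matplotlib 3.10.9). A region took its strongest peak's fold enrichment in each replicate, then the mean. The analysis plan had named another column order for the lists, so fold enrichment, the column named by the rule, was the main strength and the score and −log10 p were alternatives. An open promoter was represented by its strongest region and by the covered TSS nearest that region's midpoint. Intervals are 95% Wilson intervals for counting error. Functions were tested on simulated data.

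Named genes are the 8 with the most open promoters, the 6 most uneven and the 6 most even, the 5 most uneven with a 3′-most strongest promoter, up to 4 with a changed top place, all members of the textbook and luminal lists, and the 3 genes on each side of the distance limit; a few of these and some markers are not reported here. The members and lists were chosen with earlier results of these data known. Alternatives covered replicates, threshold, overlap, distance, TSS set, shared regions, strength measure and CpG definition.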

Additional observations from a re-analysis of the deposited data

How the results depend on the processing

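No result changed direction, though with support level 1 TSSs the CpG gap between strongest and other promoters nearly closed (41.2% against 40.8%). Of 124 alternatives, 75 kept their value within 1.5 times for counts or within the interval of the main value for shares. The shares by score and by −log10 p are among these and equal the main values exactly. At the named promoters, equal fold enrichments within a replicate carried equal scores, so these shares are no separate check of stability. Every alternative of the median lead was counted as moved, however small the shift. The moved results follow, and the causes of the shifts were not tested. With TSSs of protein-coding transcripts 223 genes met the rule, the strongest was 5′-most in 39.5%, the replicates had the same strongest region in 95.5%, other open promoters were CpG-rich in 37.2% and start codons differed in 67.3%. With GENCODE basic transcripts these were 103 genes (11.7% of eligible genes), 38.8%, 95.1%, 40.7% and 79.6%, and the strongest lay over the canonical TSS in 40.8%. With support level 1 they were 34 genes (5.41%), 35.3% 5′-most, 38.2% canonical, 41.2% of strongest and 40.8% of other promoters CpG-rich, and 67.6% with different start codons. Without regions over a TSS of another coding gene, 7.53% of eligible genes met the rule, with 50.1% and 25.7% CpG-rich; without those of any other gene, 399 genes (6.07%), 42.4% 5′-most, 37.3% canonical, and 43.1% and 24.3% CpG-rich.

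A −log10 q of at least 10 gave 7.63% of eligible genes, 41.0% canonical and 31.3% of other promoters CpG-rich, and a reciprocal overlap of 50% gave 8.47% of eligible genes. CpG content at region midpoints made 49.7% of strongest promoters CpG-rich, and a CpG ratio of at least 0.75 made it 45.7% and 24.3%. The median lead, 1.84, was 1.87 to 1.92 with a replicate left out, 1.73 at the stricter q, 1.79 under reciprocal overlap, at 2 kb and with joined groups, 1.86 at 10 kb, 1.73, 1.71 and 1.71 for the 3 TSS sets, 1.93 and 1.94 without shared regions, 2.23 by score and 2.2 by −log10 p. No paired analysis was possible because the samples analysed here are of a single condition.

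The peak lists limit these values. They hold no read counts, and a start without a shared region was not detected at this depth rather than closed. Fold enrichments between genes can also carry copy number, which was not tested. Openness at an annotated TSS was measured, not its use in transcription.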

Other observations

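The same rule applied to non-coding genes found 32 genes among 993 eligible ones, of which 29 were among 932 eligible lncRNA genes (3.11%). This share is below the 9.46% of eligible protein-coding genes; the 2 sets differ in length and annotation, and the difference was not tested. LINC00511 had the most, with 11 regions pairwise at least 5 kb apart over its 84 annotated TSSs, followed by PVT1, the long non-coding RNA beside MYC, with 10 over 132 TSSs and DRAIC with 6 over 69 TSSs. MIR99AHG and USP2-AS1 had 5 each. Both of the leading genes thus had more separate open starts than any protein-coding member, where the highest count was 7.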
